A study of Mus musculus with 12 samples.

Results

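The comparison described here is between 2 ligands of the same nuclear receptor, given to the same cells at the same dose and for the same time. The cells were embryonic fibroblasts of a mouse knockout for PPARγ, into which wild-type PPARγ had been introduced, and which had then been differentiated for 6 days. Of the 12 arrays in the series, 6 carried the comparison: 3 from cells given 1 µM rosiglitazone for 24 h and 3 from cells given 1 µM MRL24 for 24 h. The 3 arrays of untreated wild-type cells are given beside them as the background, and 3 arrays of untreated cells carrying the S273A form of PPARγ entered the fit only through the common estimate of spread. The labels name no vehicle for the untreated cells, and they leave unsaid whether replicate arrays stand for different cultures. What the p-values measure is thus array-to-array spread, some or all of which may be technical. The receptor had been put back into cells without one of their own, which limits them as a model of a fat cell.

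PPARγ is a ligand-activated transcription factor that pairs with the retinoid X receptor on DNA and is required for the formation of fat cells. Its classical targets take fatty acids up, carry them within the cell, store them in lipid droplets and burn them. Rosiglitazone, a thiazolidinedione, is a full agonist of the receptor. MRL24 is another PPARγ ligand, known as a weaker agonist of the classical targets. The receptor can also be phosphorylated at a serine, Ser273, which is known to change the expression of a separate group of fat-cell genes.

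Total RNA was hybridised to Affymetrix arrays, and the deposited values are intensities on a linear scale. The median intensity of the 6 ligand arrays lay between 305 and 315, and the brightest probe set of an array between 31996 and 33624, so the arrays had near-identical ranges. The number of arrays limits the precision. The intensity reported for a gene is that of its brightest probe set, and 9154 genes passed a filter on their mean level over all 12 arrays. Differences are in log2(intensity + 16), rosiglitazone minus MRL24, fitted with limma, and a gene was called when its Benjamini-Hochberg adjusted p over all 9154 genes was under 0.05. The comparisons of each ligand with untreated cells were adjusted over genes in the same way, and no adjustment was made over comparisons.

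Between the ligands, 229 of 9154 genes (2.50%) were called, of which 129 (1.41%) were higher and 100 (1.09%) lower with rosiglitazone than with MRL24. Most differences were small: 21 of the genes that were higher and 1 that was lower differed by more than 1.5-fold, and 5 and 1 by more than 2-fold. The median absolute log2 difference was 0.34 among the genes called higher, and the median was -0.27 among those called lower and -0.017 over all genes. For 95.2% of all genes the 95% interval of the difference lay within 1.5-fold, and for 47.5% within 1.2-fold. In 2307 genes (25.2%) the 3 arrays of one ligand all lay above the 3 of the other, and the 229 called genes were all among them. The first principal component of the 6 arrays held 33.9% of their variance and placed the rosiglitazone arrays at 3.84 to 9.84 and the MRL24 arrays at -7.17 to -6.33. The number of calls moved with single arrays: it was 118, 96 and 103 without MRL24 replicate 1, 2 or 3, 114 and 101 without rosiglitazone replicate 2 or 3, and 480 without untreated wild-type replicate 2. That untreated array stood apart from the other arrays, with a residual SD of 0.148 against 0.0955 to 0.124 for the rest, and it touches the comparison only through the common spread. Set against untreated wild-type, 721 genes (7.88%) were called with rosiglitazone, 3.70% higher and 4.17% lower, and 503 (5.49%) with MRL24, 3.20% higher and 2.29% lower. These comparisons share the untreated arrays. The first count was 383 without rosiglitazone replicate 2, and the second was 163, 122 and 76 without MRL24 replicate 1, 2 or 3, 813 without untreated wild-type replicate 1 and 156 without untreated wild-type replicate 2.

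**Figure D1:**
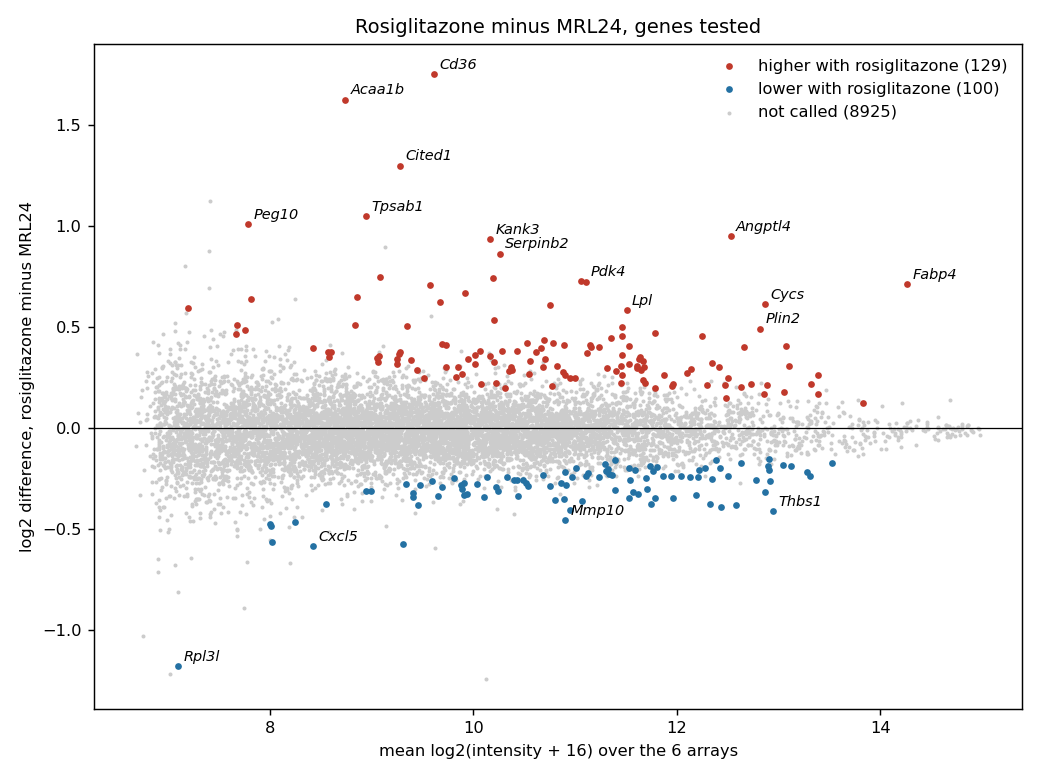
Log2 difference of rosiglitazone minus MRL24 (vertical axis) against the mean log2(intensity + 16) over the 6 ligand arrays (horizontal axis), 1 point for each of 9154 genes. Red points are the 129 genes called higher and blue points the 100 called lower with rosiglitazone, and the genes furthest above 0, Cd36 and Acaa1b, lie further from 0 than any gene called lower.

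The gene with the largest positive difference was Cd36, the fatty acid translocase of the cell surface. It had intensities of 1442, 1448 and 1376 with rosiglitazone, 405, 406 and 422 with MRL24 and 177, 150.3 and 164 in untreated cells. The lowest rosiglitazone array was more than 3 times the highest MRL24 array, and the 3 groups did not overlap. The difference between the ligands was 1.75 on the log2 scale (SE 0.081, adjusted p = 2.73e-09 in limma), a 3.37-fold difference. Against untreated cells the log2 change was 3.0 with rosiglitazone and 1.25 with MRL24, both called (adjusted p = 9.45e-13 and 6.04e-07). These values are of the brightest probe set, and the probe sets of Cd36 disagreed in size. Another averaged 880 with rosiglitazone and 246 with MRL24 and differed by 1.77. The dimmest averaged 131 and 101 and differed by 0.34 (interval 0.019 to 0.66). Under the alternative settings the lowest ligand difference of Cd36 was 1.29, and its call held in each.

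Because Cd36 and the peroxisomal thiolase gene Acaa1b showed the 2 largest differences, the promoter windows of RefSeq for these genes are shown, from 250 bases before to 50 bases after the start, on mouse build GRCm38.p6. The capitals mark the match to 2 copies of AGGTCA in the same direction with any 1 base between them, the direct repeat that the PPARγ heterodimer is known to bind, searched on both strands with up to 2 mismatches. In Cd36 (chr5:17835847-17836146, minus strand) a match, read on the opposite strand as AAGTCAGAGGCCA, began 63 bases before the start, and in Acaa1b (chr9:119157044-119157343, minus strand) these letters were not found in the window.
Cd36: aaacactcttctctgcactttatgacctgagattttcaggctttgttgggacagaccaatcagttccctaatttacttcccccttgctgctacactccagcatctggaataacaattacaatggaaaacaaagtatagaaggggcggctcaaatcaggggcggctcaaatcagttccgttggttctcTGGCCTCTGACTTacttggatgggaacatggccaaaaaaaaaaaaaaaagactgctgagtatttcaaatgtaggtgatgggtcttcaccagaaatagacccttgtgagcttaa
Acaa1b: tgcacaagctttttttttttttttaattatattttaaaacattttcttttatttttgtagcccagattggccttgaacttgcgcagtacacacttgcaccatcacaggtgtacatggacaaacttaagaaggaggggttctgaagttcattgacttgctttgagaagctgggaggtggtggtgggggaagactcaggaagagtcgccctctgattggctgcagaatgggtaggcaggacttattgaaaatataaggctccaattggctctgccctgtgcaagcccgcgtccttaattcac
Of all 32851 such windows in the table, 3.86% held a match. Among the 30 genes with the largest differences, 19 had at least 1 window in the table and 3 had a match, namely Cd36, Ghrh and Rpl3l. Counted by window, as the share above is, 3 of their 31 windows held a match. That of Ghrh began after the start. A match is a description of the letters and shows no binding.

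Other called genes of fatty acid handling were Fabp4, Angptl4, Lpl, Fabp5 and Lipa. Fabp4, the fatty acid carrier of mature fat cells, had intensities of 25237, 25308 and 24915 with rosiglitazone, 15345, 15535 and 15137 with MRL24 and 9320.2, 10368 and 8838 in untreated cells. Angptl4, a secreted inhibitor of lipoprotein lipase, had 8146, 8548 and 7907 with rosiglitazone, 4209, 4166 and 4326 with MRL24 and 3062, 3188 and 2933 in untreated cells. In both genes the 3 groups did not overlap, and MRL24 lay between rosiglitazone and untreated cells. The ligands differed by 0.71 (95% interval 0.61 to 0.82) for Fabp4 and by 0.95 (0.85 to 1.05) for Angptl4 on the log2 scale, with limma adjusted p of 3.56e-07 and 2.73e-09. The Fabp4 values with rosiglitazone lay high in the arrays' range. Lpl, the lipase that frees fatty acids from lipoproteins, averaged 3545 ± 162 with rosiglitazone, 2361 ± 78.5 with MRL24 and 1994 ± 162 in untreated cells (SD, n = 3 each), a ligand difference of 0.58 (limma adjusted p = 2.01e-05). Fabp5, a second carrier, averaged 4136 ± 184, 2986 ± 149 and 3165 ± 446 in the same order of groups, and Lipa, the lysosomal acid lipase, 2609 ± 136, 1975 ± 70.7 and 1959 ± 91.4. For these 2 genes MRL24 was not called against untreated cells (adjusted p = 0.577 and 0.919), and the ligands differed by 0.47 and 0.40 (adjusted p = 0.00244 and 5.52e-04). In the list for fatty acid uptake, binding and activation, 5 of 18 tested members were called higher and 0 lower, against 1.41% and 1.09% of all genes. The gene lists used here and below share members, and a shared gene is counted in each. Cd36, for example, is also among the classical agonist targets and the adipocyte markers. The counts of different lists are therefore not separate results.

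**Figure D2:**
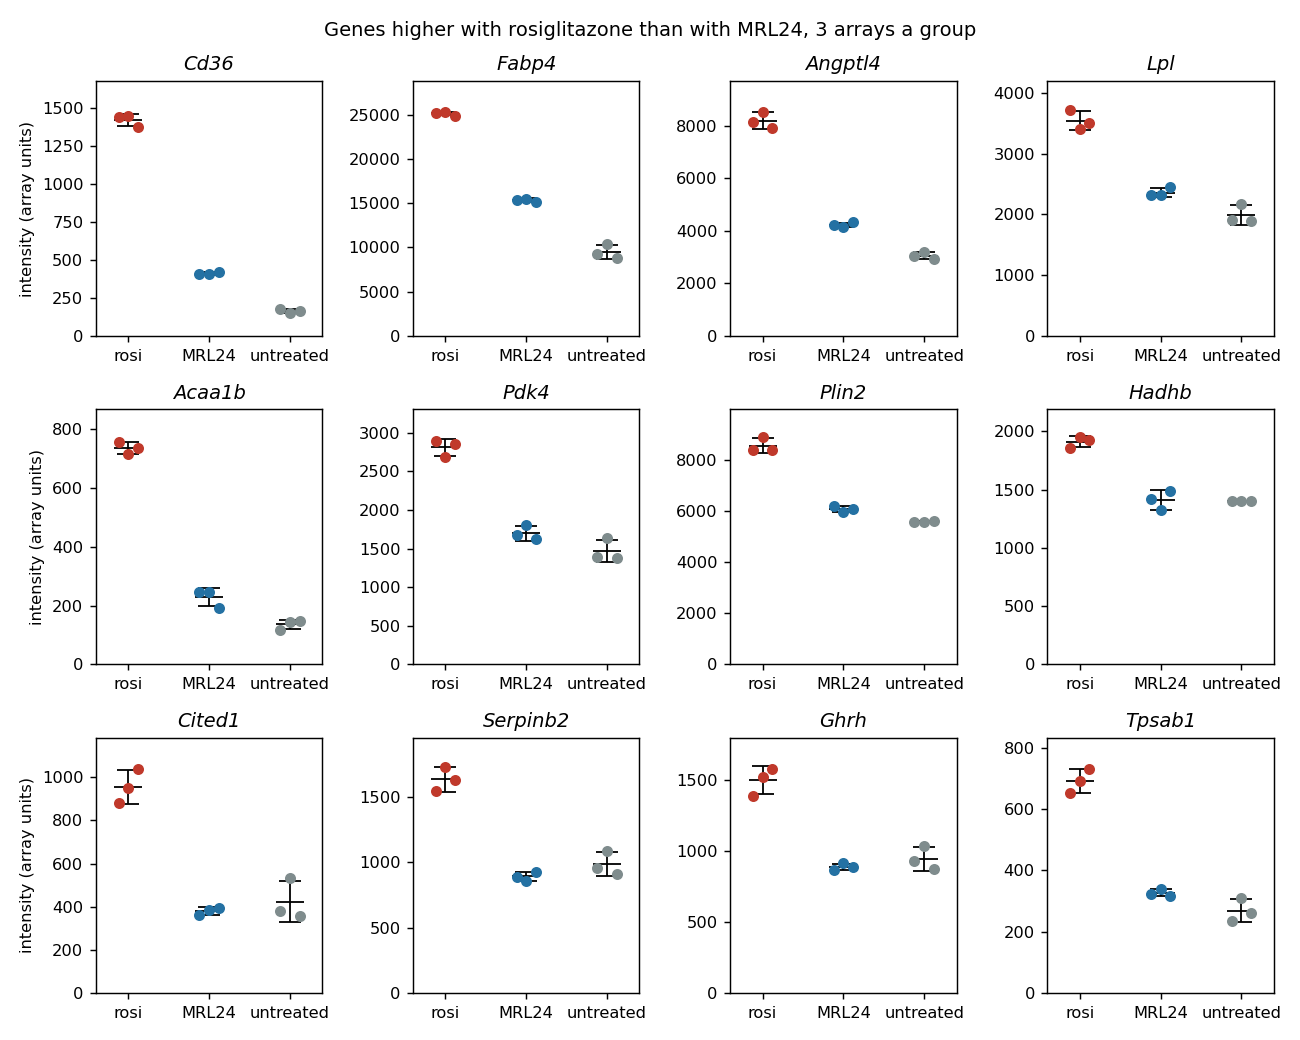
Intensity in each array (vertical axes, array units, from 0) of 12 genes called higher with rosiglitazone, with 3 arrays each for rosiglitazone (red), MRL24 (blue) and untreated wild-type cells (grey); bars are the mean ± SD. In each panel the 3 rosiglitazone arrays lie above all others, and MRL24 lies above untreated cells for Cd36, Fabp4 and Angptl4 and among or near them for Hadhb, Cited1, Serpinb2 and Ghrh.

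In fatty acid oxidation, Acaa1b, a peroxisomal thiolase, had intensities of 756, 717 and 735 with rosiglitazone, 246, 247 and 193 with MRL24 and 118, 144 and 147 in untreated cells, 3 groups that did not overlap, and the ligands differed by 1.63 on the log2 scale (1.35 to 1.90, limma adjusted p = 3.09e-06). Its near-copy Acaa1a was not called, with a difference of 0.0081 (95% interval -0.13 to 0.15). The dimmer probe set of Acaa1a averaged 522 with rosiglitazone and 453 with MRL24 and differed by 0.20 (95% interval 0.018 to 0.38). How far the probes of Acaa1a and Acaa1b share signal was not tested. Ech1, an isomerase of the same pathway, averaged 3384 ± 193 with rosiglitazone, 2551 ± 119 with MRL24 and 2415 ± 86.3 in untreated cells (SD, n = 3 each). In the peroxisomal list 4 of 33 tested members were called higher and 0 lower, against 1.41% and 1.09% of all genes. The count called higher was 2 without MRL24 replicate 2 or 3 or rosiglitazone replicate 3.

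For mitochondrial fatty acid oxidation, 9 of 28 members were called higher and 0 lower, against 1.41% and 1.09% of all genes. The median log2 difference was 0.13, against -0.017 for all genes. Hadhb, a subunit of the trifunctional protein, had 1859.7, 1949 and 1922 with rosiglitazone, 1416, 1321 and 1489.6 with MRL24 and 1399.5, 1405 and 1402 in untreated cells. All rosiglitazone arrays were above all others, while the MRL24 arrays fell on both sides of the untreated ones. The ligands differed by 0.44 (limma adjusted p = 2.22e-04) and MRL24 was not called against untreated cells (0.0054, interval -0.11 to 0.12). Acaa2, the mitochondrial thiolase, and Acadvl, the very long chain acyl-CoA dehydrogenase, differed by 0.32 and 0.28 (limma adjusted p = 0.00628 and 0.00542). The calls of these 3 genes held without each array in turn. The list's count did not: it was 5, 3 and 3 without MRL24 replicate 1, 2 or 3, and 4 and 3 without rosiglitazone replicate 2 or 3. Cpt1a, which brings fatty acids into the mitochondrion as carnitine esters, was not called, at 1987 ± 68.7 with rosiglitazone, 1918 ± 35.3 with MRL24 and 1774 ± 129 in untreated cells (SD, n = 3 each), and the interval of its difference was -0.087 to 0.19.

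In the list for the tricarboxylic acid cycle and pyruvate, 4 of 31 tested members were called higher with rosiglitazone and 0 lower, against 1.41% of all genes called higher. Pdk4, the kinase that switches off pyruvate dehydrogenase, had 2889, 2688 and 2859 with rosiglitazone, 1673, 1799 and 1618 with MRL24 and 1395, 1638 and 1374 in untreated cells. The ligand arrays did not overlap, and 1 untreated array lay above the lowest MRL24 array. Its log2 difference was 0.72 (0.58 to 0.86, limma adjusted p = 7.12e-06). Pcx, which makes oxaloacetate from pyruvate, and Idh3a, a subunit of the mitochondrial isocitrate dehydrogenase, differed by 0.41 and 0.42 (limma adjusted p = 0.00149 and 8.46e-04). The other called member was Aco1, the cytosolic aconitase (0.38, adjusted p = 0.00893), whose call was lost when the gene's probe sets were averaged and without MRL24 replicate 2 (adjusted p = 0.0708).

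**Figure D3:**
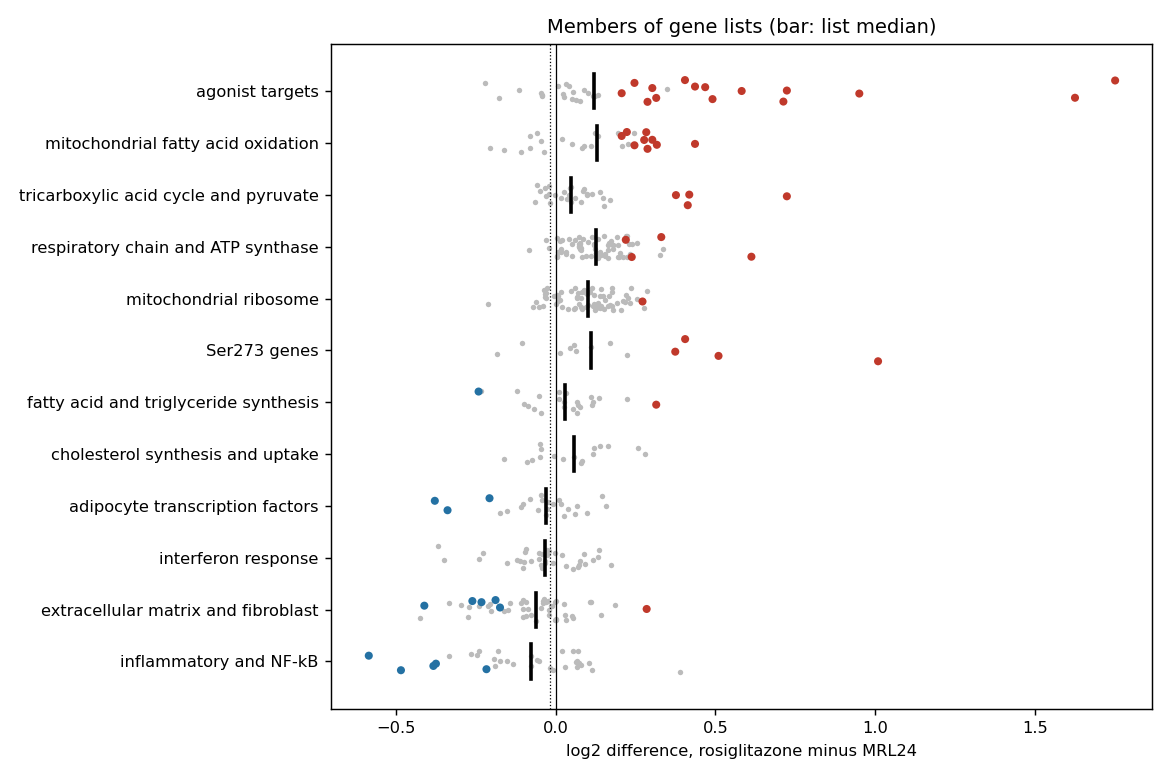
Log2 difference of rosiglitazone minus MRL24 (horizontal axis) for the tested members of 12 gene lists (vertical axis), 1 point for each gene. Red points were called higher and blue points lower with rosiglitazone, grey points were not called, the black bar is the list's median, and the dotted line is the median of all genes (-0.017); called members of the agonist target and oxidation lists lie to the right and those of the inflammatory list to the left.

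The respiratory chain and ATP synthase list was shifted by a small amount across many members. Its median difference was 0.13, with 70 of 73 members above 0, against 4059 of all 9154 genes, and for 46 members the rosiglitazone arrays all lay above the MRL24 arrays, against 10.8% of all genes. Of the 73 members, 4 were called, all higher, against 1.41% of all genes. That number was 2, 1 and 2 without MRL24 replicate 1, 2 or 3, and 1 and 2 without rosiglitazone replicate 2 or 3. It was 7 without untreated wild-type replicate 1 and 29 without untreated wild-type replicate 2. Cycs, the electron carrier cytochrome c, was the member that kept its call without each array, with 8924, 9078 and 9596 with rosiglitazone, 5968, 6156 and 5900.0 with MRL24 and 5712, 7682 and 6056 in untreated cells. Untreated replicate 2 was well above the other untreated arrays in this gene. The list's mean log2 level, after subtraction of each array's median, was 2.33, 2.35 and 2.41 with rosiglitazone, 2.25, 2.21 and 2.19 with MRL24 and 2.31, 2.50 and 2.28 in untreated cells. The ligand arrays did not overlap, and all 3 untreated arrays lay above the MRL24 arrays. Against untreated cells the list's median with MRL24 was -0.14, with 11 members called lower and 0 higher, against 2.29% and 3.20% of all genes. Without untreated wild-type replicate 2 that median was -0.074. The rosiglitazone arrays lay above untreated replicates 1 and 3 and below replicate 2, so their place against untreated cells rests on 1 array. The mitochondrial ribosome list had a median of 0.10, with 61 of 73 members above 0 and 1 called, which is near the 1.41% of all genes called higher, Mrps22 (0.27, adjusted p = 0.0461). No member was called without S273A replicate 1 or 2, untreated wild-type replicate 3, rosiglitazone replicate 2 or 3 or any 1 of the MRL24 arrays (adjusted p of Mrps22 up to 0.236), 2 were without S273A replicate 3 and 7 without untreated wild-type replicate 2.

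Among genes of lipid storage, Plin2, a coat protein of lipid droplets, had 8368, 8891 and 8393 with rosiglitazone, 6177, 5968 and 6087 with MRL24 and 5575, 5578 and 5599 in untreated cells, and differed by 0.49 between the ligands (0.40 to 0.58, limma adjusted p = 5.57e-06). The rosiglitazone arrays all lay above the MRL24 ones. Hilpda, an inhibitor of lipolysis induced by hypoxia, was called with a smaller difference of 0.17 (adjusted p = 0.00893), which was lost without MRL24 replicate 1 or 2 or rosiglitazone replicate 3 (adjusted p = 0.0526 to 0.064). In the list for lipid droplets and lipolysis, 3 of 13 members were called higher and 0 lower, against 1.41% and 1.09% of all genes. In that for fatty acid and triglyceride synthesis, against the same shares, 1 of 24 members was called higher and 1 lower. They were Dgat2, which makes triglyceride (0.31, adjusted p = 0.0104, up to 0.0755 without MRL24 replicate 1 or 2 or rosiglitazone replicate 2 or 3), and Lpin2, a phosphatidate phosphatase (-0.24, adjusted p = 0.0357, up to 0.148 without any 1 of the 6 ligand arrays). With the probe sets of Lpin2 averaged the difference was -0.084 (adjusted p = 0.61), and its 2 dimmer probe sets differed by -0.045 and 0.033. The desaturase gene Scd1 averaged 6663 ± 168 with rosiglitazone, 6417 ± 210.1 with MRL24 and 6542 ± 90.3 in untreated cells (SD, n = 3 each), and the interval of the ligand difference was -0.029 to 0.14. For Scd2 it was -0.032 to 0.094 and for the lipoprotein receptor gene Vldlr -0.025 to 0.15. In these 3 bright genes a ligand difference above 1.2-fold lay outside the 95% interval.

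Across the list of classical agonist targets, 60 genes were listed, 9 had no usable probe set, 15 fell below the filter and 36 were tested. With rosiglitazone 15 were called higher and 0 lower, against 1.41% and 1.09% of all genes, and 21 were not called. The median difference was 0.12, and 30 of 36 members lay above 0. The count was 10 without MRL24 replicate 2 or rosiglitazone replicate 3 and lay between 11 and 15 without the other arrays. Members such as Cyp4b1, with a wide interval (0.13 to 0.57), were not resolved. Of the members below the filter, Adipoq, the hormone adiponectin of fat cells, had 143, 140.2 and 134 with rosiglitazone, 46.5, 66.1 and 91.3 with MRL24 and 37.3, 62.4 and 60.9 in untreated cells, and Cidec, which fuses lipid droplets, had 84.7, 88.6 and 119 with rosiglitazone, 22.4, 27.4 and 41.5 with MRL24 and 7.93, 14.6 and 32.6 in untreated cells. The ligand arrays were apart in both, at dim levels that were left out of the test.

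**Figure D4:**
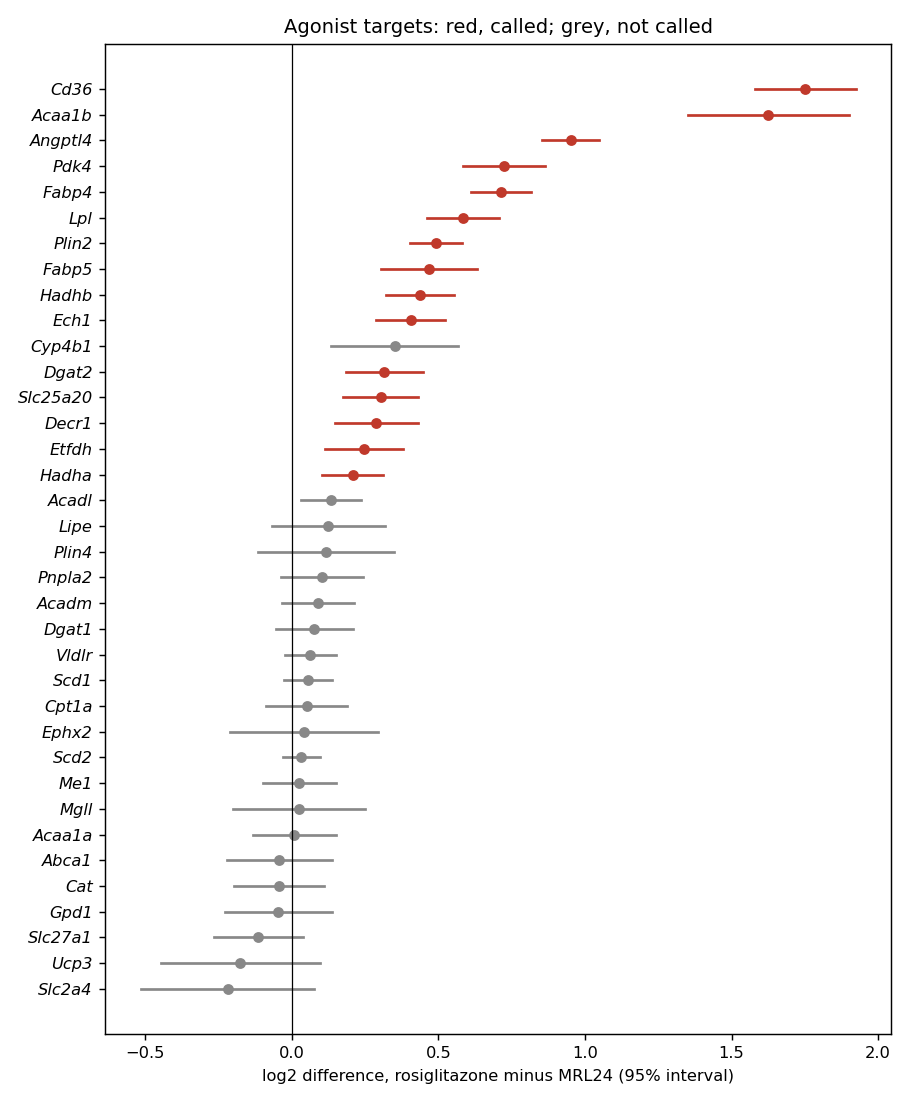
Log2 difference of rosiglitazone minus MRL24 with its 95% interval (horizontal axis) for the 36 tested agonist targets (vertical axis, ordered by difference). Red marks the 15 called genes, from Hadha at 0.21 to Cd36 at 1.75, and grey the 21 not called, whose intervals mostly cross 0.

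The second group of interest was the list of 17 genes tied to Ser273 of PPARγ, of which 13 were tested. This list comes from work on cells of this kind and may have been chosen on these samples, so its direction is not independent evidence. Between the ligands, 4 were called higher with rosiglitazone and 0 lower, against 1.41% and 1.09% of all genes. Peg10, a gene of retrotransposon origin, had 304, 276 and 313 with rosiglitazone, 159, 123 and 139 with MRL24 and 80.5, 94.0 and 91.2 in untreated cells, and Aplp2, a relative of the amyloid precursor protein, had 9871, 10079.9 and 9765 with rosiglitazone, 7184, 7414 and 7839.7 with MRL24 and 7381, 6151 and 7144 in untreated cells. Their ligand arrays did not overlap, and the differences were 1.01 and 0.41 (limma adjusted p = 5.19e-04 and 6.60e-04). The probe set used for Aplp2 gave the smallest difference of that gene's probe sets, and the others ranged from 0.56 to 0.69. Car3, a carbonic anhydrase abundant in fat, and Rarres2, the adipokine chemerin, were also called (0.51 and 0.37, adjusted p = 0.0395 and 0.0273), but both calls were lost without any 1 of the 3 MRL24 arrays or without rosiglitazone replicate 2 or 3 (adjusted p up to 0.179 and 0.135). That of Car3 was also lost without rosiglitazone replicate 1 or S273A replicate 1 or 2, and that of Rarres2 when its probe sets were averaged. The probe sets of Car3 disagreed in size: the dimmer one averaged 458 with rosiglitazone and 133 with MRL24, a difference of 1.67 (95% interval 1.33 to 2.01), and with both averaged the difference was 1.09 (limma adjusted p = 1.01e-05). The count of 4 was 2 without 1 of those 5 arrays and 6 without untreated wild-type replicate 2.

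Some other members of the Ser273 list had near levels with both ligands, and others differed without being called. Of the 13 tested members, 11 lay above 0. For 7 the rosiglitazone arrays all lay above the MRL24 arrays and for 1 all below, against 10.8% and 14.4% of all genes. Txnip, a regulator of thioredoxin, had 7672, 8039 and 7874 with rosiglitazone, 7483, 7447 and 7649 with MRL24 and 6036, 5897 and 5857 in untreated cells. Both ligand groups lay above every untreated array, and each was called against untreated cells (0.41 and 0.34, limma adjusted p = 3.25e-06 and 1.43e-04). The ligand difference was 0.063, with an interval of -0.015 to 0.14. Cyp2f2, a cytochrome of xenobiotic metabolism, averaged 728 ± 21.9 with rosiglitazone, 705 ± 4.65 with MRL24 and 538 ± 39.7 in untreated cells (SD, n = 3 each), with an interval of -0.096 to 0.19 for the ligand difference. Nr1d1, the clock repressor Rev-erb alpha, averaged 2634 ± 44.3, 2443 ± 197 and 1877 ± 166 in that order, with an interval of -0.025 to 0.25. Acly, which makes cytosolic acetyl-CoA, averaged 6089.6 ± 112 with rosiglitazone, 5213 ± 75.2 with MRL24 and 3991 ± 395 in untreated cells, and its ligand difference of 0.22 missed the threshold (adjusted p = 0.08), as did that of Cd24a (0.17, adjusted p = 0.0862). A p above the threshold does not show that the ligands act alike on these genes, and the intervals give the differences that remain possible.

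Several of the largest differences were in genes outside lipid metabolism, and in some of them MRL24 and untreated cells had near levels. Cited1, a transcriptional coactivator, had 882, 949 and 1039 with rosiglitazone, 360.1, 384 and 393 with MRL24 and 380.3, 531 and 358 in untreated cells. The ligands differed by 1.30 (1.06 to 1.54, limma adjusted p = 5.57e-06), while MRL24 was not called against untreated cells (-0.13, adjusted p = 0.508). Ghrh, the hypothalamic hormone that releases growth hormone, had 1391, 1525 and 1581 with rosiglitazone, 866, 913 and 885 with MRL24 and 929, 1037 and 871 in untreated cells, and Serpinb2, an inhibitor of plasminogen activators, averaged 1636 ± 93.7, 892 ± 32.6 and 985 ± 93.1 in the same order (SD, n = 3 each). All rosiglitazone arrays of these genes were above all other arrays, and the ligand differences were 0.74 and 0.86 (adjusted p = 7.12e-06 and 5.57e-06). By contrast Kank3, an ankyrin-repeat protein of the cell cortex, was in 3 separate steps, with 1573 ± 53.6 with rosiglitazone, 814 ± 18.4 with MRL24 and 506 ± 67.4 in untreated cells, and differed by 0.94 between the ligands (adjusted p = 7.12e-06). Sprr1a, Cdk18 and Parm1 differed by 0.73, 0.71 and 0.67 (adjusted p = 5.57e-06, 1.69e-04 and 3.98e-05). The remaining gene of the 15 with the largest rise was Tmem158, at 0.75 (adjusted p = 0.00142), a call lost when the 3 probe sets of the gene were averaged. The calls of the other 14 of the 15 held without each array in turn and in every other setting in which they were tested.

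Tpsab1, a tryptase of mast cells, had 653, 692 and 731 with rosiglitazone, 324, 339 and 317 with MRL24 and 234, 308 and 261 in untreated cells, a ligand difference of 1.05 (adjusted p = 5.57e-06). Of the other 7 mast cell markers listed, 5 fell below the filter, among them Kit and Fcer1a, and the 2 tested, Tpsb2 and Cpa3, were not called (0.14 and -0.23). Of 9 macrophage markers, 5 were tested and 0 called, against 2.50% of all genes, with differences from -0.097 for Mrc1 to 0.25 for Adgre1. All 7 tested fibroblast markers lay below 0, from -0.23 for Thy1 to -0.012 for Col1a1. Against 1.09% of all genes, 2 were called lower with rosiglitazone, Thy1 and Col3a1. Both calls were lost without any 1 of the 6 ligand arrays (adjusted p up to 0.161 and 0.161). Of the adipocyte markers 3 of 7 tested were called higher, against 1.41% of all genes, namely Cd36, Fabp4 and Lpl. Cebpa, Retn, Plin4 and Slc2a4 were not called. In bulk RNA, more cells of a type and more RNA per cell cannot be told apart.

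In the inflammatory and NF-κB list 5 of 33 tested members were called lower with rosiglitazone, against 1.09% of all genes, and 0 higher, with a median of -0.078. For 14 members the rosiglitazone arrays all lay below the MRL24 arrays, against 14.4% of all genes. Cxcl5, a neutrophil-attracting chemokine, had 289.9, 229.6 and 276 with rosiglitazone, 421, 399.8 and 391.9 with MRL24 and 542, 502 and 501 in untreated cells. Il33, an alarmin cytokine, had 5467, 5232 and 5350.1 with rosiglitazone, 6729, 7082 and 7131 with MRL24 and 7668, 8398 and 7495 in untreated cells. In Cxcl5 the 3 groups were fully apart, in Il33 as well, and MRL24 lay between rosiglitazone and untreated cells. The ligands differed by -0.58 (-0.79 to -0.38) and -0.38 (-0.47 to -0.29), with limma adjusted p of 0.00229 and 7.95e-05. Lcn2, an iron-sequestering lipocalin, averaged 4504 ± 229 with rosiglitazone, 5840.2 ± 68.8 with MRL24 and 6566 ± 447 in untreated cells, and Saa3, an acute-phase protein made in fat, averaged 9209 ± 179, 10705 ± 298 and 11891 ± 310.4 (SD, n = 3 each). Their differences were -0.37 and -0.22 (adjusted p = 3.06e-04 and 0.00149). Those 4 calls held without each array in turn. The call of Tslp, a cytokine of epithelia (-0.48, adjusted p = 0.0303), was lost without MRL24 replicate 2 or 3 or rosiglitazone replicate 1 or 2 (adjusted p up to 0.154). Ccl2, a monocyte-attracting chemokine, missed the threshold at -0.15 (adjusted p = 0.0528), and Ptgs2 and Nfkbia had intervals of -0.22 to 0.061 and -0.057 to 0.098. Without untreated wild-type replicate 2, the list had 9 members called lower and 1 higher.

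**Figure D5:**
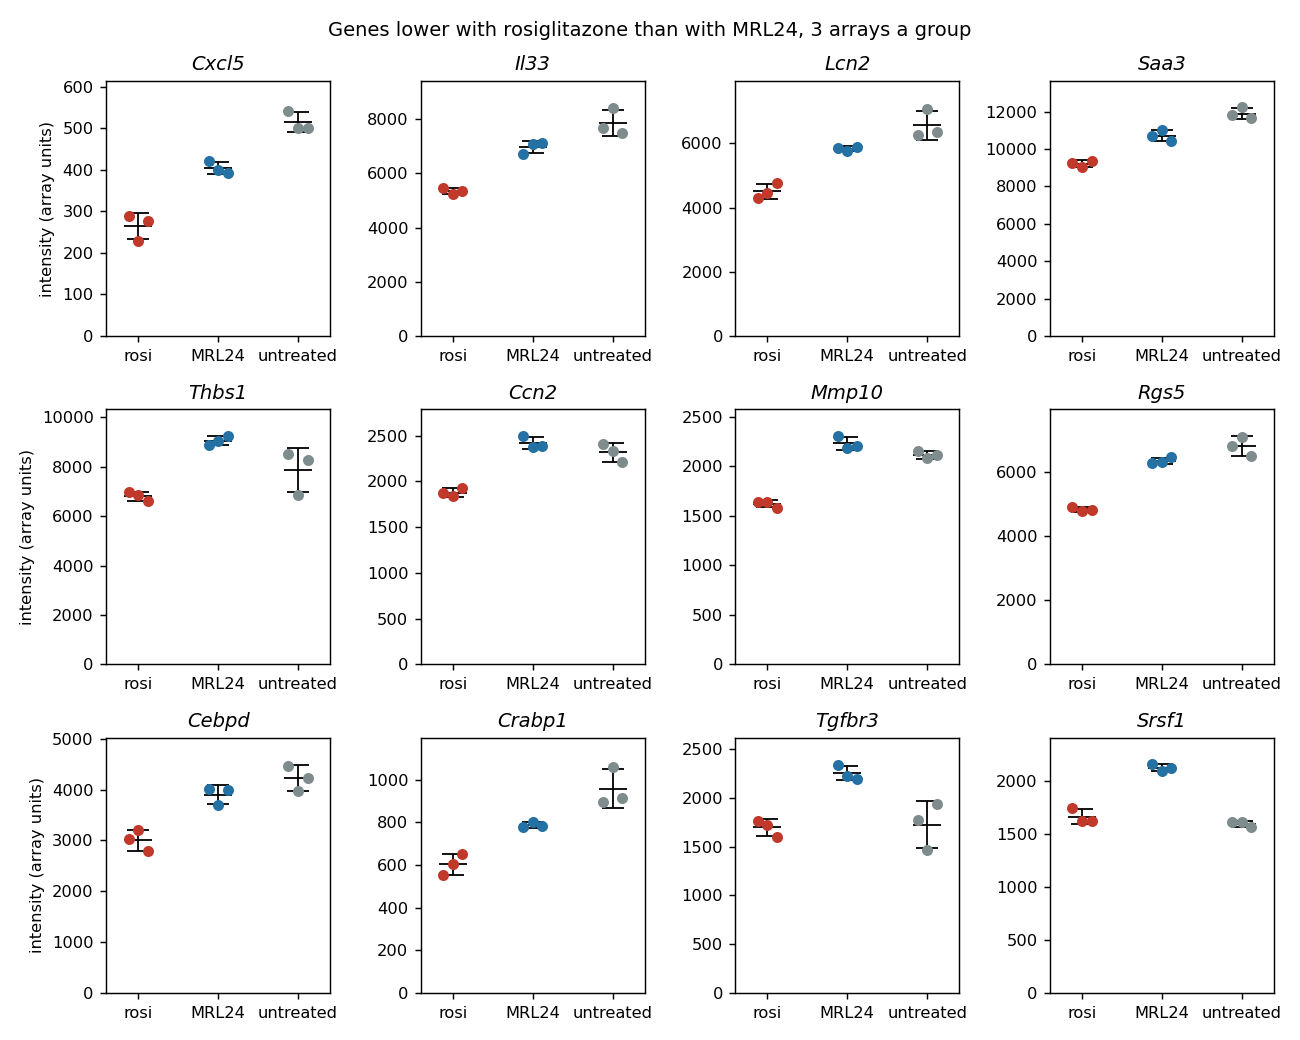
Intensity in each array (vertical axes, array units, from 0) of 12 genes called lower with rosiglitazone than with MRL24, with 3 arrays each for rosiglitazone (red), MRL24 (blue) and untreated wild-type cells (grey); bars are the mean ± SD. MRL24 lies below untreated cells for Cxcl5 and Il33, near them for Mmp10 and Ccn2, and above them for Srsf1.

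The matrix and fibroblast list also had 5 members called lower. Thbs1, a matrix protein that activates TGF-β, had 6973, 6852 and 6612 with rosiglitazone, 8888, 9049 and 9249 with MRL24 and 8509.7, 6845 and 8269.9 in untreated cells. The ligand arrays did not overlap, and the untreated arrays spread from the rosiglitazone level to near the MRL24 level. The difference was -0.41 (limma adjusted p = 0.00149). Ccn2 and Rgs5 are not in that list and were called as well. Ccn2, connective tissue growth factor, averaged 1878 ± 44.5 with rosiglitazone, 2421 ± 66.7 with MRL24 and 2318 ± 101 in untreated cells (SD, n = 3 each), a difference of -0.36 (adjusted p = 5.76e-04). Rgs5, a regulator of G-protein signalling known from pericytes, averaged 4830.4 ± 74.7, 6336 ± 106 and 6799.7 ± 298 in the same order, a difference of -0.39 (adjusted p = 2.01e-05). Of the 51 tested members of the matrix and fibroblast list, 5 were called lower and 1 higher, against 1.09% and 1.41% of all genes. The other 45 were not called, and 13 members lay above 0. The count of members called lower was 1 without any 1 of the MRL24 arrays or without rosiglitazone replicate 2 or 3, 2 without rosiglitazone replicate 1 and 12 without untreated wild-type replicate 2. Thbs1 was the member called lower in all of these. The collagen gene Col1a1 and fibronectin, Fn1, had intervals of -0.15 to 0.12 and -0.090 to 0.044. The probe set used for Fn1 read 28837 with rosiglitazone and 29299 with MRL24 on average, near the brightest values on the arrays, and the gene's dimmer probe set averaged 665 and 849 and differed by -0.35 (95% interval -0.59 to -0.11), so the narrow interval of the bright one is no bound on the difference of Fn1.

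Among transcription factors of fat-cell formation, 3 of 24 tested were called, all lower with rosiglitazone, against 1.09% of all genes called lower. Cebpd, an early inducer of the programme, had 3025, 3195 and 2782 with rosiglitazone, 4014, 3690.4 and 3999 with MRL24 and 4470.4, 3961 and 4225 in untreated cells, with no overlap between the ligands and a difference of -0.38 (limma adjusted p = 0.00173). That call was lost when the gene's 2 probe sets were averaged. The calls of Klf2 (-0.34, adjusted p = 0.0365) and Cebpb (-0.21, adjusted p = 0.0248) were lost without MRL24 replicate 2 or 3 or rosiglitazone replicate 1 or 3 (adjusted p up to 0.162 and 0.122), and that of Cebpb also without MRL24 replicate 1 or rosiglitazone replicate 2 and when its probe sets were averaged. Cebpa averaged 351 ± 4.35 with rosiglitazone, 348 ± 24.7 with MRL24 and 313 ± 43.4 in untreated cells (SD, n = 3 each), with a ligand interval of -0.22 to 0.25.

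Of the 15 genes with the largest fall, Cxcl5, Mmp10, Thbs1, Rgs5 and Il33 kept their call in every setting tried. Mmp10, a matrix protease, had 1640.3, 1639 and 1579.9 with rosiglitazone, 2301, 2185 and 2200.5 with MRL24 and 2149.7, 2078 and 2111 in untreated cells, so that untreated cells lay between the ligands without overlap, and the ligands differed by -0.46 (limma adjusted p = 6.67e-05). Rpl3l, a ribosomal protein known from striated muscle, had the largest fall of the called genes but was dim. It had 89.5, 58.5 and 80.0 with rosiglitazone, 222, 137 and 226 with MRL24 and 132, 141 and 151 in untreated cells. Its difference of -1.18 (adjusted p = 0.0372) lost its call without MRL24 replicate 1 or 3 or any 1 of the rosiglitazone arrays (adjusted p up to 0.162). Czib and Prxl2a (-0.57 and -0.57, adjusted p = 0.00141 and 0.00244) lost theirs when the probe sets of each gene were averaged. Crabp1, a carrier of retinoic acid, had 554, 603 and 651 with rosiglitazone, 779, 802 and 781 with MRL24 and 896, 1061 and 915 in untreated cells, 3 groups without overlap. Its difference of -0.38 (adjusted p = 0.0101) was lost without MRL24 replicate 2 or rosiglitazone replicate 1 (adjusted p = 0.0538 to 0.0642). Tgfbr3, the TGF-β co-receptor betaglycan, had 1765, 1728 and 1603 with rosiglitazone, 2334, 2229.7 and 2196 with MRL24 and 1777, 1462 and 1935 in untreated cells, where MRL24 stood above the other groups and rosiglitazone fell among the untreated arrays. That difference of -0.41 (adjusted p = 0.0107) was lost without MRL24 replicate 1 or rosiglitazone replicate 3 (adjusted p = 0.0676 to 0.0738). The calls of Klra2, Ptpn22 and Usp33 (-0.48, -0.47 and -0.38) were each lost without MRL24 replicate 1, 2 or 3 or rosiglitazone replicate 2 (adjusted p up to 0.147, 0.12 and 0.149). Those of Klra2 and Ptpn22 were also lost without rosiglitazone replicate 1, those of Klra2 and Usp33 without rosiglitazone replicate 3, and that of Usp33 without S273A replicate 2.

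In a further group the untreated arrays lay between the 2 ligands, all 3 groups apart. Besides Mmp10, the ones that kept their call in every setting were Krt18, a keratin of simple epithelia, and Ptn, Tcim and Adss. Krt18 had 512, 533 and 546 with rosiglitazone, 369, 352 and 383 with MRL24 and 418, 409 and 393 in untreated cells. Ptn, the heparin-binding growth factor pleiotrophin, had 2994, 3147 and 3202 with rosiglitazone, 3936, 3915 and 4052 with MRL24 and 3875, 3733 and 3716 in untreated cells. Their ligand differences were 0.51 and -0.35 (limma adjusted p = 0.00335 and 0.00703). MRL24 on its own was not called against untreated cells in any of these 5 genes, so the opposite sides are seen in the order of the arrays and not in a test of MRL24.

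Neither Pparg, the receptor's gene, nor its partner Rxra nor the control genes were called between the ligands. Pparg averaged 834 ± 76.1 with rosiglitazone, 846 ± 20.7 with MRL24 and 904 ± 97.7 in untreated cells (SD, n = 3 each), and the interval of the ligand difference was -0.24 to 0.19. Whether its probe set reads the receptor introduced into these knockout cells was not tested. Rxra differed by -0.18 (adjusted p = 0.227). For Actb, Hprt and Tbp the differences were 0.0085, 0.070 and 0.25, with adjusted p of 0.944, 0.576 and 0.144. That of Tbp was larger than the difference of some called genes. The ratio of 3′ to 5′ control probe sets, a sign of RNA quality, ran from 1.03 to 1.06 with rosiglitazone, 1.05 to 1.08 with MRL24 and 1.05 to 1.15 in untreated cells for Actb. No member was called in the lists for insulin signalling (23 tested), cholesterol synthesis (17), the interferon response (36), the circadian clock (18), the unfolded protein response and heat shock (36) or the BCL2 family (15), against 2.50% of all genes. Their median differences lay between -0.038 for insulin signalling and 0.059 for cholesterol synthesis.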

How the data were processed

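Total RNA of 12 samples, 3 arrays in each of 4 groups, was measured on Affymetrix mouse arrays. The intensity of each probe set was used as the authors deposited it, on a linear scale. Their normalization method is not given in the sources used. No deposited value column was left out. The arrays held 22690 probe sets, of which 64 served as controls, 20380 named a single gene, 691 named several and 1555 had no name here. For 20351 probe sets the symbol was checked by Entrez ID, and 0 changed. Each of 12393 genes was taken as its brightest probe set, and genes under the 30th percentile of the mean log2 level over all non-control probe sets, an intensity of 98.7, were left out.

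Values were used as log2(value + 16), which understates the changes of dim genes. All 12 arrays, which share 1 estimate of spread, were fitted by lmFit and eBayes, with a trend on mean level, of limma 3.58.1 (R 4.3.3). The residual degrees of freedom were 8, the prior ones 7.72 and the median residual SD 0.100. Intervals are 95% intervals from the fit, and the text's mean ± SD are of intensities. Other steps ran in python 3.11.15, with pandas 2.3.3, numpy 2.4.6 and matplotlib 3.10.9. On simulated data with changed genes added to 9154 genes, the fit of rosiglitazone minus MRL24 recovered 11, 33, 43 and 49 of 50 genes changed 1.2-, 1.3-, 1.5- and 2-fold, with 3 false calls. Replicate numbers were not used as pairs. The labels do not say whether they mark shared cultures, and the deviations of same-numbered arrays cannot decide it.

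The members and gene lists were chosen with earlier results of these data known. Genes were named by rule: the 15 called genes with the largest difference in each direction among those whose ligand arrays did not overlap; in each list described, up to 6 called members and up to 3 bright uncalled ones; up to 8 genes with untreated cells between the ligands; the agonist target and Ser273 lists; Pparg, Rxra and control genes; up to 5 bright uncalled agonist targets; and genes whose probe sets disagree. Not all of them are described, and those described were picked after their values were seen. A few list members at the ends of a list's range are given as well. The alternatives were other pseudocounts, other filters, averaged probe sets, 2 normalizations, 6 arrays alone, no trend, array weights, a replicate block and each array left out.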

Additional observations from a re-analysis of the deposited data

How the results depend on the processing

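Under the 23 alternatives, or the 22 in which Acaa1b and Peg10 were tested (both fell below the 50th percentile filter), 14 of the 15 genes with the largest rise and 5 of the 15 with the largest fall kept their call, as did 46 of the 95 called genes that were followed. Of 2177 values recomputed, 1 reversed: Decr1, a reductase of fatty acid oxidation, was -0.023 on the log2 scale when its 2 probe sets were averaged. Calls lost without a trend were those of Cebpb, Col3a1, Hadha, Hilpda, Klf2, Klra2, Lpin2, Mrps22, Nrp2, Rarres2, Rpl3l, Tgfbr3 and Thy1 among the genes named in the text. The number of genes called between rosiglitazone and MRL24, 229, was 546 with only the 6 ligand arrays, 132 without a trend on the mean level and 637 with array weights, and it lay between 96 and 480 when 1 array was left out. It was 172 to 274 under other pseudocounts, filters, averaged probe sets and normalizations. With the arrays set to the same median, 143 genes were called higher and 73 lower. The count for rosiglitazone against untreated wild-type, 721, lay between 383 and 762 with 1 array left out. That for MRL24 against untreated wild-type, 503, was 225 without a filter on intensity, 162 without a trend and 76 to 813 with 1 array left out. The causes of these moves were not tested. With the replicate number as a block the count between the ligands was 174. Same-numbered arrays of the ligands correlated at -0.018, -0.018 and -0.00013 in their deviations, and the numbers were not used as pairs. The labels do not say whether the numbers mark shared cultures, and with 3 arrays a group these correlations cannot decide it. Signal over background and 3 arrays a group limit what is seen: of genes changed 1.2-fold in simulated data, 11 of 50 were recovered.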

Other observations

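Some called genes outside the rule for named genes are given here, chosen after their values were seen. In 3 of them MRL24 stood above both other groups. Srsf1, a splicing factor, had intensities of 1742, 1621 and 1619 with rosiglitazone, 2154, 2092 and 2117 with MRL24 and 1609, 1611 and 1562 in untreated cells, and the ligands differed by -0.35 on the log2 scale (limma adjusted p = 0.00236). Ltbp1, which holds latent TGF-β in the matrix, had 2830.0, 2717 and 2794 with rosiglitazone, 3469, 3579.8 and 3444 with MRL24 and 3097, 2635 and 2942 in untreated cells, a difference of -0.33 (adjusted p = 0.00274). Both are lower with rosiglitazone than with MRL24, and neither was called for rosiglitazone against untreated cells (0.058 and -0.053, intervals -0.064 to 0.18 and -0.17 to 0.063). Nrp2, a neuropilin, had the same order of groups (-0.30 between the ligands, adjusted p = 0.0326), but its call was lost without any 1 of the 6 ligand arrays (adjusted p up to 0.154).

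Of 4 further called genes, 2 were lower and 2 higher with rosiglitazone. Cck, the gene for the peptide cholecystokinin, averaged 6682 ± 179 with rosiglitazone, 8341 ± 78.8 with MRL24 and 9096 ± 122 in untreated cells (SD, n = 3 each), and Ghr, the growth hormone receptor, averaged 4149 ± 77.5, 5224 ± 86.7 and 5381 ± 74.2 in the same order. The differences between the ligands were -0.32 and -0.33 (limma adjusted p = 5.97e-05 and 9.02e-05). In the other direction were Fdx1, a mitochondrial ferredoxin, with 2066, 2103 and 2166 with rosiglitazone, 1404, 1326 and 1415 with MRL24 and 1350.2, 1533 and 1241 in untreated cells, and Mgst3, a membrane-bound glutathione transferase. They differed by 0.61 and 0.50 (adjusted p = 4.93e-05 and 0.00131). The call of Mgst3 was lost when its 2 probe sets were averaged (adjusted p = 0.426).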
